A study of Oryza sativa with 4 samples.

Results

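Young panicles of the rice mutant *phoenix* (*pho*) were compared with those of WT at a panicle length of 5–8 cm, with 1 Affymetrix GeneChip Rice Genome Array for each genotype. The array has 57258 probe sets beside its controls, a probe set being a group of short oligonucleotides that together measure 1 transcript. The 22917 probe sets with a mean MAS5 signal of at least 100 over these 2 arrays were ranked by log2((*pho* + 16)/(WT + 16)), where 16 was added to damp ratios of very low signals. They represent 13880 genes, of which 2020 have a name, and the largest differences among these named genes are described here. The *pho* plants are of *indica* rice, arose spontaneously and by the study carry both an altered *OsMADS15* protein and a silenced *OsMADS1*. Their spikelets form plantlets and have neither stamens nor carpels. The WT plants are *indica* cultivar Zhongxian 3037. Plants of both genotypes stood in paddy fields in Beijing, whole panicles were taken, and the number of plants behind a sample is not stated. The series holds 2 further arrays, *pho* and WT at 9–12 cm, which the ranking did not use and whose signals are given as values from another panicle length. A line of the description of the 9–12 cm WT sample names *pho*, while its title, source and genotype give WT, and it was used as WT. With 1 array per genotype and length, the differences have no replicate check, and all calls below are by size of ratio alone.

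A rice spikelet normally ends in a floret whose lodicules, stamens and carpel are specified by MADS-box transcription factors acting in combination, with SEP-like proteins as partners of the B-, C- and D-class proteins. Anthers then form the tapetum, a secretory cell layer that feeds developing pollen, around the cells that enter meiosis. In pseudovivipary a leafy shoot develops in the place of the floret. Abscisic acid (ABA) is the hormone of seed maturation and drought, and late embryogenesis abundant (LEA) proteins and dehydrins, which protect drying cells, accumulate in response to it.

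The authors had scaled the arrays to the same overall intensity, so a similar overall signal was set by the processing. The median over all probe sets was 50.5 in *pho* and 49.0 in WT at 5–8 cm. The median log2 ratio of the ranked probe sets was 0.02. The ratio of 3′ to 5′ signals of control transcripts, which grows as RNA degrades, differed between the genotypes at this length. It was 3.28 in *pho* and 10.6 in WT for actin, and 6.87 in *pho* and 16.4 in WT for GAPDH. In panicles of 9–12 cm the actin ratio was 5.26 in *pho* and 4.95 in WT. The part of RNA quality in the differences below was not tested. The 6 genes taken as markers of panicle and spikelet meristems were *OsMADS14*, *OsMADS15*, *OsMADS18*, *OsMADS34*, *RFL* and *OSH1*. All 6 lay above the array median in both genotypes, with a summed signal of 39698 in *pho* and 30870.1 in WT. The largest part of the sum was that of *OsMADS15*, a gene altered in *pho*, with 15892 in *pho* and 14444 in WT. *OSH1* had 7773 in *pho* and 7553 in WT.

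At least 4-fold higher signals in *pho* were found for 242 probe sets, 1.06% of those ranked, and at least 4-fold lower signals for 214, or 0.934%. At the 2-fold level 1240 probe sets were higher (5.41%) and 786 were lower (3.43%). For scale, between the WT arrays of 9–12 and 5–8 cm, 1.63% of 23328 probe sets were at least 4-fold higher and 0.489% at least 4-fold lower. Differences of 4-fold between the genotypes were thus about as frequent as those between 2 panicle lengths of WT. Counted by gene, with the brightest probe set of each, 76 of the 13880 genes were at least 4-fold higher and 141 at least 4-fold lower. Of the 2020 named genes, 12 (0.594%) were at least 4-fold higher in *pho* and 41 (2.03%) at least 4-fold lower, whereas 89 were at least 2-fold higher and 97 at least 2-fold lower. Just inside the 4-fold limit stood *OsMADS55* (log2 ratio 2.02) and *SUS3* (-2.06). Just outside it stood *OsMADS50* (1.996) and *TF1* (-1.98), a homeobox gene.

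**Figure D1:**
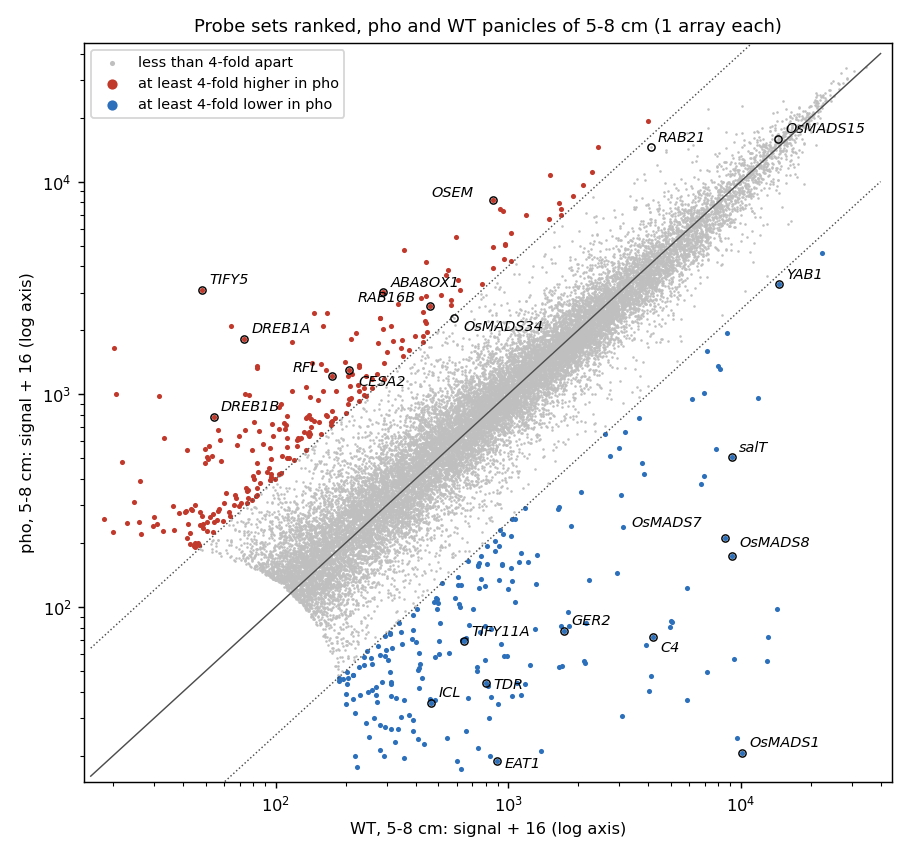
Signal plus 16 of each ranked probe set in *pho* (vertical axis) against WT (horizontal axis) in panicles of 5–8 cm, both on log axes, with the solid line at equal signals and dotted lines 4-fold apart. Of 22917 probe sets, 242 lie above the upper dotted line (red) and 214 below the lower one (blue). Circles mark named genes, among which *OsMADS1* lies lowest on the *pho* axis for its WT signal and *TIFY5* farthest above the lines.

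Among named genes, the 7 lowest ratios were those of floral MADS-box genes and of tapetal genes. In whole panicles, fewer cells of a type and less RNA per cell cannot be told apart. *OsMADS1*, the SEP-like gene that is silenced in *pho*, ranked lowest of all probe sets, with a signal of 4.6 in *pho* and 10166 in WT (log2 ratio -8.95), and with 109 in *pho* and 10671 in WT at 9–12 cm. The *pho* signal at 5–8 cm lay under the array median, and with such signals raised to the median of their array the difference was 201-fold. *OsMADS15*, the other altered gene, had 15892 in *pho* and 14444 in WT, and its 3 further ranked probe sets had log2 ratios of 0.07 to 0.49. Its transcript level thus stood within 2-fold of WT. *OsMADS8* had 157 in *pho* and 9203 in WT, and *OsMADS7* had 195 in *pho* and 8548 in WT, both SEP-like. Of the SEP-like list, 4 of 5 members were at least 4-fold lower, beside 0.934% of all ranked probe sets. The remaining member, *OsMADS34*, which acts in inflorescence meristems, was higher with 2270 in *pho* and 569.7 in WT. At 9–12 cm *OsMADS34* was within 2-fold, with 786 in *pho* and 616 in WT. Many of these MADS-box genes stand in the study's own array comparison, which printed signals of these same arrays. The counts of the MADS-box lists are thus not independent evidence of the direction of these genes.

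The B-class and AGL6-like list held 5 ranked genes, and all 5 were at least 2-fold lower in *pho*, with a median log2 ratio of -2.64 beside 0.02 for all ranked probe sets. *OsMADS17*, an AGL6-like gene, had 319 in *pho* and 3035 in WT. *OsMADS4* and *OsMADS16*, B-class genes for lodicules and stamens, had log2 ratios of -2.95 and -2.64. *OsMADS2* was the least different of this list, with 2592 in *pho* and 6275 in WT. Of 6 C-, D-class and B-sister genes, 3 passed the filter on signal, and all 3 were at least 2-fold lower. Over all ranked probe sets that share was 3.43%. The C-class gene *OsMADS58*, of stamens and carpels, had 67.8 in *pho* and 2137 in WT, the ovule gene *OsMADS13* had 14 in *pho* and 248 in WT, and *OsMADS3* had 103 in *pho* and 414 in WT. The *pho* signals of *OsMADS58* and *OsMADS13* were under 100, so these genes passed the filter only through WT. *OsMADS21*, *OsMADS29* and *OsMADS30* had a mean signal under 100 and were not ranked.

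MADS-box genes of the meristem and of flowering time lay on the other side. *OsMADS55* had 531 in *pho* and 119 in WT, and *OsMADS50*, the rice counterpart of *SOC1*, had 1971 in *pho* and 482 in WT. *OsMADS22*, of the SVP-like group, had 2472 in *pho* and 996 in WT, whereas *OsMADS56* had 2123 in *pho* and 2307 in WT. The first 3 genes were again at least 2-fold higher in *pho* at 9–12 cm. Among the AP1/FUL-like genes *OsMADS14* was 2.11-fold higher with 5183 in *pho* and 2449 in WT, and *OsMADS18* had a log2 ratio of 0.37. The 3 further ranked probe sets of *OsMADS14* had log2 ratios from 0.42, which is within 2-fold, to 1.51. *OsMADS14* and *OsMADS34* are next to each other on chromosome 3, with 0 annotated genes between them.

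*RFL*, the rice *LEAFY* gene, which maintains panicle branching, had 1205 in *pho* and 159 in WT (log2 ratio 2.80), the highest ratio of the spikelet and floral organ regulators. At 9–12 cm it was within 2-fold, with 320 in *pho* and 165 in WT. The other members of this list that stood apart were lower, 6 of 8 by at least 2-fold, beside 3.43% of all ranked probe sets. *YAB1*, a YABBY gene, had 3276 in *pho* and 14550 in WT, and *OPB*, a zinc finger gene of floral organ shape and identity also known as *SL1*, had 110 in *pho* and 608 in WT. Values of *YAB2*, *YAB4*, *YAB6* and *DL*, the carpel and leaf midrib gene, were lower by log2 ratios between -1.05 and -1.46, while *YAB5* was at 0.21. At 9–12 cm 3 of the 8 genes were at least 2-fold lower, namely *YAB1*, *OPB* and *DL*, beside 10.8% of all ranked probe sets. There *YAB2* (-0.36), *YAB4* (-0.62) and *YAB6* (0.03) were within 2-fold. *SPL16*, a regulator of grain width and the annotated neighbour of *OsMADS7* on chromosome 8, had 458 in *pho* and 3761 in WT. It was again lower at 9–12 cm, with 141 in *pho* and 4055 in WT.

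**Figure D2:**
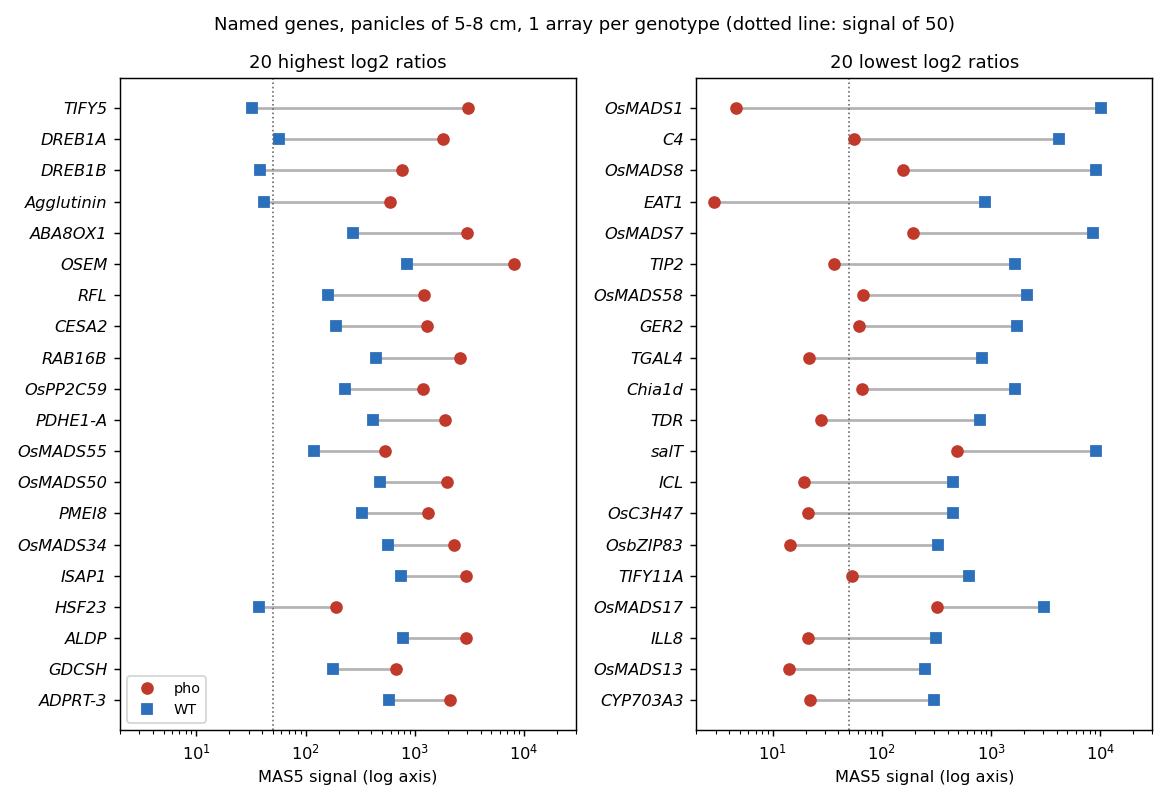
MAS5 signals (log axis) in *pho* (circles) and WT (squares) of the 20 named genes with the highest and the 20 with the lowest log2 ratio at 5–8 cm, 1 array per genotype, with a dotted line at a signal of 50, near the array medians of 50.5 in *pho* and 49.0 in WT. The *pho* signal lies under the line in 11 of the 20 lowest genes, and the WT signal lies under it in 4 of the 20 highest.

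Genes of the anther stood next to the MADS-box genes at the lower end. *C4*, a gene for a lipid transfer protein of the tapetum, had 55.8 in *pho* and 4193.5 in WT (log2 ratio -5.87). The tapetal bHLH regulators *EAT1*, *TIP2* and *TDR* had log2 ratios of -5.57, -4.99 and -4.20, and *CYP703A3*, whose enzyme makes precursors of the pollen wall, had -3.04. All 5 were lower at 9–12 cm as well, where *CYP703A3* had 128 in *pho* and 8069 in WT. Of the 10 tapetum and pollen wall genes ranked, 6 were at least 2-fold lower, 5 of them at least 4-fold, and 0 were at least 2-fold higher. Over all ranked probe sets, 3.43% were at least 2-fold lower and 0.934% at least 4-fold lower. These 5 genes had *pho* signals under 100 at 5–8 cm, so they passed the filter only through WT. The list median of -2.09 was -0.92 without the filter. The 5 tapetal markers measured had a summed signal of 117 in *pho* and 3656 in WT, and all 5 lay under the array median in *pho*, as 1 of them did in WT.

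*DMC1*, which acts in meiotic recombination, had 67.7 in *pho* and 492 in WT, and *PAIR2*, needed for chromosome pairing, had 120 in *pho* and 749.7 in WT. *MEL1*, a germ cell Argonaute, had 650.3 in *pho* and 3179 in WT. The other 4 of the 7 ranked meiosis genes were within 2-fold. Over all ranked probe sets, 3.43% were at least 2-fold lower. The *pho* signal of *DMC1* was under 100, so this gene passed the filter only through WT. At 9–12 cm *DMC1* was within 2-fold (log2 ratio -0.90), while *PAIR2* (-3.25) and *MEL1* (-2.035) were again lower. *AGO14*, another Argonaute gene, had 33.3 in *pho* and 294 in WT, and passed the filter only through WT. It was the only gene of 16 in the DNA methylation and Polycomb list at least 2-fold apart. Most members of this list are Argonaute genes. Of its 12 single names 5 could be matched, namely *MET1A*, *MET1B*, *CMT3*, *DRM2* and *EZ1*, so most of the names looked up were not measured. The 4 meiocyte markers summed to 911 in *pho* and 4514 in WT, and the carpel markers *DL* and *OsMADS13* to 419 in *pho* and 1105 in WT. *PAIR1*, a meiocyte marker that was not ranked, had 73.5 in *pho* and 92.9 in WT.

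Several genes with other known roles were as low in *pho* as the floral regulators, and lower again at 9–12 cm. *TGAL4*, a TGA-like bZIP gene, had 21.7 in *pho* and 826 in WT at 5–8 cm, and 48.9 in *pho* and 440 in WT at 9–12 cm. *OsbZIP83*, a bZIP gene also named *TGAL11*, had 14.5 in *pho* and 329 in WT, and 24.1 in *pho* and 187 in WT at the longer length. Both TGA-like genes thus had *pho* signals under the array median at both lengths. *Chia1d*, a chitinase gene, had 65.5 in *pho* and 1667 in WT, and 277 in *pho* and 11084 in WT at 9–12 cm. The zinc finger gene *OsC3H47* had 20.9 in *pho* and 445 in WT, with a log2 ratio of -3.64, and *ILL8*, of the family that frees auxin from amino acid conjugates, had 21.2 in *pho* and 314 in WT, with -3.15.

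Transport and sugar genes were among them. *PIP2-7*, an aquaporin gene, had 756 in *pho* and 3632 in WT at 5–8 cm and 201 in *pho* and 3584 in WT at 9–12 cm. *SUT5*, a sucrose transporter gene, had 49.4 in *pho* and 258.5 in WT, and *SUS3*, a sucrose synthase gene, had 58.7 in *pho* and 295 in WT. Both lay at the 4-fold limit, and their low *pho* signals were near the median of the array. Of the sucrose and starch list, 19 of 22 members were within 2-fold, and of the aquaporins 11 of 13. *GLN1-3*, a cytosolic glutamine synthetase gene, had 122 in *pho* and 595 in WT. *OsCASPL1D1* and *OsCASPL1E1*, for proteins related to those of the Casparian strip membrane domain, had log2 ratios of -2.24 and -2.58. At 9–12 cm *OsCASPL1D1* was again lower (-2.23), and *OsCASPL1E1* was not (-0.20). *CAD6*, of the cinnamyl alcohol dehydrogenase family that acts in lignin synthesis, had 93.7 in *pho* and 473.5 in WT, against 299.9 in *pho* and 363 in WT at 9–12 cm.

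A further 7 of the 41 named genes that were at least 4-fold lower at 5–8 cm were at least 2-fold higher in *pho* at 9–12 cm. *salT*, a lectin gene known for its induction by salt, had 488 in *pho* and 9144 in WT at 5–8 cm, and 30061 in *pho* and 6955.5 in WT at 9–12 cm. Its WT signals were within 2-fold of each other, and the *pho* signals were on either side of them. *GER2*, of the germin-like family of cell wall proteins, had 61.4 in *pho* and 1725.5 in WT, and 6352 in *pho* and 1915 in WT at 9–12 cm. *PBZ1*, a pathogenesis-related gene, had 43.6 in *pho* and 264 in WT, and 7603 in *pho* and 134 in WT at 9–12 cm. The metallothionein genes *MT-1* and *MT1B*, whose products bind metals, had log2 ratios of -2.77 and -2.27 at 5–8 cm and of 2.36 and 5.35 at 9–12 cm.

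*ICL* and *CAT-A* completed the 7 genes. *ICL* encodes isocitrate lyase, an enzyme of the glyoxylate cycle that turns acetate units from fatty acids into precursors of sugar. It had 19.5 in *pho* and 450.4 in WT at 5–8 cm, and 1169 in *pho* and 248 in WT at 9–12 cm. *MS*, for malate synthase, the other enzyme particular to this cycle, was looked up after *ICL* and had 264 in *pho* and 1041 in WT, and 3692 in *pho* and 479.5 in WT at 9–12 cm. *CAT-A*, a catalase gene, had 168 in *pho* and 858 in WT, and 5164 in *pho* and 2368 in WT at 9–12 cm. Other genes of these functions were not counted. For *ICL*, *MS* and *CAT-A* the *pho* signal was under the WT signal at the shorter length and over it at the longer, with 1 array behind each value. Panicle length and the individual sample cannot be told apart in this design.

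**Figure D3:**
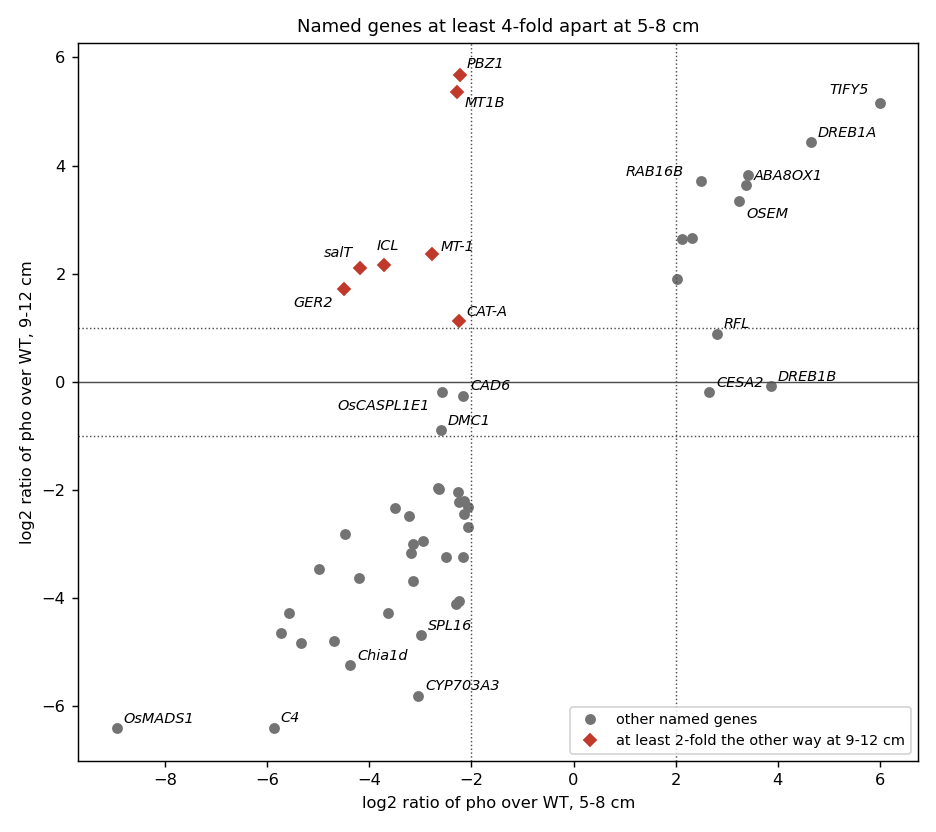
Log2 ratio of *pho* over WT at 9–12 cm (vertical axis) against that at 5–8 cm (horizontal axis) for the 12 named genes at least 4-fold higher and the 41 at least 4-fold lower at 5–8 cm, with dotted lines at 4-fold on the horizontal and 2-fold on the vertical axis. Red diamonds are the 7 genes at least 2-fold the other way at 9–12 cm, all of them lower at 5–8 cm.

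At the upper end, *TIFY5*, which encodes a JAZ-type repressor of jasmonate signalling and is also named *OsJAZ2*, had the highest ratio of a named gene. Its signal was 3082 in *pho* and 32.2 in WT at 5–8 cm (log2 ratio 6.01), and 2726 in *pho* and 61.0 in WT at 9–12 cm. Both WT signals were near or under the array median, and both *pho* signals were high. The rest of the jasmonate list did not stand with it, as 14 of its 17 ranked members were within 2-fold, with a median log2 ratio of -0.30. *TIFY11A*, another JAZ gene, was among the lowest named genes, with 52.8 in *pho* and 628 in WT at 5–8 cm and 304 in *pho* and 1776 in WT at 9–12 cm. A further JAZ gene, *TIFY10C*, had 413 in *pho* and 1028 in WT, and 2299 in *pho* and 559 in WT at the longer length. JAZ genes thus stood at both ends of the ranking.

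The next named genes belong to the responses to cold and drying. *DREB1A* and *DREB1B* encode AP2/ERF transcription factors known for induction by cold, and they stand close together on chromosome 9 with 1 annotated gene between them. *DREB1A* had 1808 in *pho* and 57.1 in WT at 5–8 cm, and 3417 in *pho* and 143 in WT at 9–12 cm. *DREB1B* had 767 in *pho* and 38.0 in WT at 5–8 cm, but 885 in *pho* and 941 in WT at 9–12 cm, so that the genotypes did not stand apart at the longer length. *DREB1E* had 187 in *pho* and 48.5 in WT, and *DREB2B*, of the drought-induced branch, had 248 in *pho* and 207 in WT. These 4 were the ranked members of the 8 DREB genes with a probe set. This list was put together after its values had been seen, and the WT signals of *DREB1A*, *DREB1B* and *DREB1E* were under 100, so these genes passed the filter only through *pho*. The list median of 2.76 was 0.95 without the filter and 0.28 at 9–12 cm.

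Some genes of ABA turnover and of desiccation tolerance were higher in *pho*, while most genes looked up for these roles were within 2-fold, as counted below. *ABA8OX1*, whose enzyme inactivates ABA by hydroxylation, had 3005 in *pho* and 274 in WT at 5–8 cm (log2 ratio 3.38), and 5450.3 in *pho* and 423 in WT at 9–12 cm. *ABA8OX2*, of the same family, had 7607 in *pho* and 3446 in WT. *OSEM*, the LEA gene *Em* of maturing embryos, had 8140 in *pho* and 846 in WT at 5–8 cm (3.24), and 902 in *pho* and 74.7 in WT at 9–12 cm. Its signals were thus lower at the longer length in both genotypes, while the ratio was similar. The dehydrin gene *RAB16B* had 2589 in *pho* and 444.5 in WT, and its neighbour *RAB21* had 14466 in *pho* and 4089 in WT. In the longer panicles *RAB21* had 8350 in *pho* and 27.2 in WT, where the WT signal lay under the array median. *RAB16C* had 1062 in *pho* and 332 in WT. *RAB16B* and *RAB21* are next to each other on chromosome 11. Whether the probe sets of these RAB genes share transcripts was not tested, so they may not be separate observations.

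*OsPP2C59* and *PP2C68*, for phosphatases of the group that restrains ABA signalling, had log2 ratios of 2.32 and 1.01. *P5CS2*, for proline synthesis, had 495 in *pho* and 143.5 in WT, while *P5CS1*, with the same function, had 9078 in *pho* and 8829 in WT. *OsPM19L1*, for a membrane protein of dry embryos, had 216.5 in *pho* and 77.7 in WT. A list of ABA, LEA and dehydration genes, put together after these values had been seen, had 30 ranked members. Of these, 10 were at least 2-fold higher, 0 at least 2-fold lower and 20 within 2-fold. Over all ranked probe sets, 5.41% were at least 2-fold higher and 3.43% at least 2-fold lower. The median log2 ratio of the list was 0.39, beside 0.02 for all ranked probe sets. The SAPK kinase genes of ABA signalling were all among the 20, from *SAPK6* at -0.65 to *SAPK5* at 0.88. *LEA19* (log2 ratio 0.37) and *Dhn1* (0.11) were also within 2-fold. At 9–12 cm 11 of the 30 genes were at least 2-fold higher and 4 at least 2-fold lower. Over all ranked probe sets these shares were 10.9% and 10.8%.

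**Figure D4:**
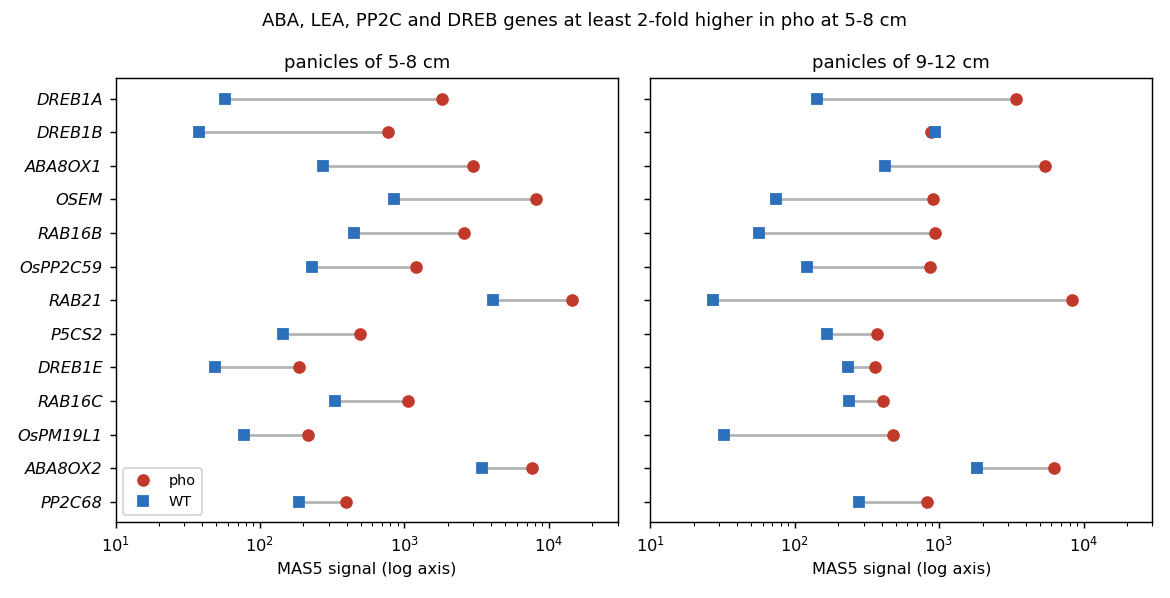
MAS5 signals (log axis) in *pho* (circles) and WT (squares), with panicles of 5–8 cm on the left and of 9–12 cm on the right, for the 10 genes of ABA and dehydration and the 3 DREB genes at least 2-fold higher in *pho* at 5–8 cm. At 9–12 cm the *pho* signal is again the higher for all of them other than *DREB1B*, which had 885 in *pho* and 941 in WT.

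Other genes of the upper end had varied roles. *CESA2*, a cellulose synthase gene, had 1289 in *pho* and 191 in WT at 5–8 cm (log2 ratio 2.66), and 422 in *pho* and 486 in WT at 9–12 cm. The gene annotated as *Agglutinin* had 596 in *pho* and 41.6 in WT, and 989 in *pho* and 54.7 in WT at 9–12 cm. *PDHE1-A*, for a subunit of pyruvate dehydrogenase, had 1869 in *pho* and 415.5 in WT, and *PMEI8*, for an inhibitor of pectin methylesterase, had 1321 in *pho* and 325 in WT. Of these 4 genes, *CESA2* was the exception in being within 2-fold at the longer length. *ISAP1*, a stress-associated zinc finger gene, had 2938 in *pho* and 750.3 in WT, and *HSF23*, a heat shock factor gene, had 190.3 in *pho* and 37.6 in WT. *ADPRT-3*, for a poly(ADP-ribose) polymerase, had 2092 in *pho* and 574 in WT, against 306.5 in *pho* and 423 in WT at 9–12 cm.

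Leaf metabolism was represented among the 20 highest ratios by *ALDP*, for the plastid aldolase of carbon fixation, and *GDCSH*, for the H protein of the glycine decarboxylase of photorespiration. *ALDP* had 2925 in *pho* and 783 in WT at 5–8 cm, and 9466 in *pho* and 1023 in WT at 9–12 cm. *GDCSH* had 673 in *pho* and 177 in WT, and 1207 in *pho* and 349 in WT at 9–12 cm. Of the 13 ranked chloroplast and photosynthesis genes, 2 were at least 2-fold higher, *PORA* with a log2 ratio of 1.39 and *CHLH* with 1.08, and 11 were within 2-fold. Over all ranked probe sets, 5.41% were at least 2-fold higher. A second ranked probe set of *CHLH* had a log2 ratio of -0.63, so the direction of this gene was not settled. The 4 green leaf markers summed to 30124 in *pho* and 21263 in WT.

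Most of the hormone, cell division and homeobox genes differed little at this length. Of 46 auxin genes 45 were within 2-fold, the exception being *GH3.11*, for an enzyme that conjugates hormones to amino acids, with 418 in *pho* and 171 in WT. Of 48 cell cycle and histone genes 47 were within 2-fold, the exception being the cyclin gene *CYCD4-1* with 3893 in *pho* and 1814 in WT. By their brightest probe sets, all 6 gibberellin genes and all 9 genes of flowering time and the clock were within 2-fold, the largest differences being those of *20ox2* (log2 ratio -0.47) and *PHYA* (0.99). A second ranked probe set of *PHYA*, a phytochrome gene, was past 2-fold with a log2 ratio of 1.44. Among 26 cytokinin genes 2 were at least 2-fold higher and 1 at least 2-fold lower, beside 5.41% and 3.43% of all ranked probe sets. *CKX4*, for an enzyme that degrades cytokinin, had 195.5 in *pho* and 59.0 in WT, *LOGL7*, of the family that activates cytokinin, had 1000.5 in *pho* and 466 in WT, and *RR5*, a response regulator gene, had 80.1 in *pho* and 192 in WT. Of 9 KNOX, WOX and shoot meristem genes 8 were within 2-fold, and *LAX1*, a bHLH gene of axillary meristems, had 156 in *pho* and 62.4 in WT. The leaf timing gene *GO* (*PLA3*) had 1152.5 in *pho* and 510.0 in WT. Of 34 heat shock genes 31 and of 37 cell wall genes 32 were within 2-fold.

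**Figure D5:**
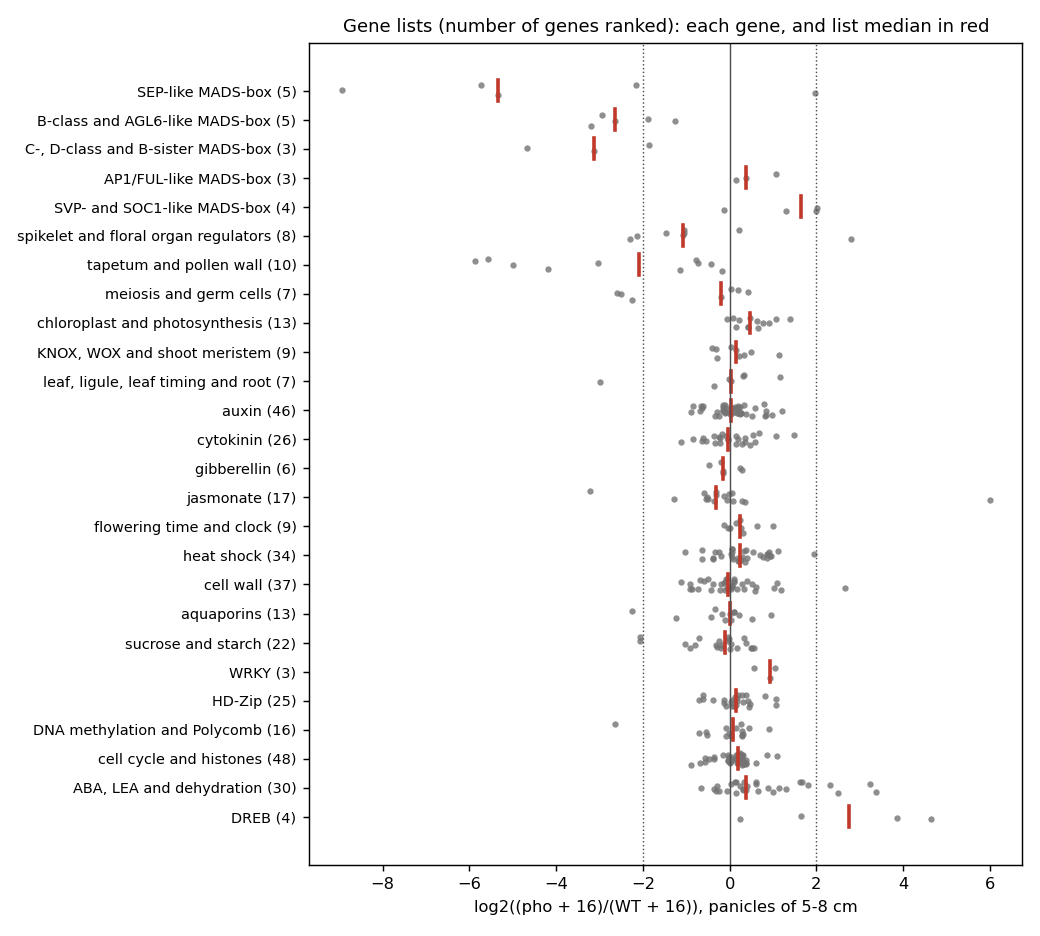
Log2((*pho* + 16)/(WT + 16)) at 5–8 cm (horizontal axis) of every ranked gene in 26 gene lists, 1 grey point per gene, with the list median as a red bar, the number of genes ranked in brackets, a solid line at equal signals and dotted lines at 4-fold. The medians of the SEP-like (-5.35), C-, D-class and B-sister (-3.14) and B-class and AGL6-like (-2.64) MADS-box lists lie lowest, and most other medians lie near 0.02, the median of all ranked probe sets. The DREB list (2.76) and the ABA list were put together after their values had been seen.

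Of the 214 probe sets at least 4-fold lower at 5–8 cm, 154 (72.0%) were at least 2-fold lower at 9–12 cm, 31 (14.5%) at least 2-fold higher and 29 within 2-fold. Of the 242 at least 4-fold higher, 114 (47.1%) were at least 2-fold higher at 9–12 cm, 13 (5.37%) at least 2-fold lower and 115 within 2-fold. The lower probe sets thus had larger shares both in the same and in the opposite direction, and this difference was not tested. Over all ranked probe sets, 10.8% were at least 2-fold lower and 10.9% at least 2-fold higher at 9–12 cm. Among the named genes, 9 of the 12 higher and 31 of the 41 lower were at least 2-fold the same way at the longer length. These shares come from different arrays, but at another stage of the panicle.

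Different probe sets of 1 gene did not always move together. The 163 higher probe sets with 1 annotated gene fell on 149 genes, and for 76 of these genes the brightest probe set itself was at least 4-fold higher. Among the 99 of these probe sets whose gene had a further ranked probe set, 40 (40.4%) had one at least 2-fold higher as well. Of the 150 lower probe sets with 1 gene, 141 were the brightest of their gene, and 13 of 22 (59.1%) had a further probe set at least 2-fold lower. Identifiers of a type that can match several transcripts made up 99 of the 242 higher and 40 of the 214 lower probe sets. These shares stand beside the actin and GAPDH ratios, which were also unequal between the arrays, and the part of either in the result was not tested.

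The ranking also held probe sets without a gene name in the annotation used. The highest of all ranked was Os.54381.1.S1_at, with 1636 in *pho* and 4.1 in WT at 5–8 cm, and 1160.3 in *pho* and 47.7 in WT at 9–12 cm. Of the lowest 17, those other than *OsMADS1* and *C4* had no named gene. The second lowest was Os.20306.1.S1_at, with 8.1 in *pho* and 9672 in WT, and 146 in *pho* and 16706 in WT at 9–12 cm. Both stood as far apart as the extreme named genes and did so at both lengths.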

How the data were processed

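The authors extracted total RNA from panicles, hybridized biotin-labelled cRNA to the Affymetrix GeneChip Rice Genome Array and computed MAS5 signals in GCOS, scaled so that each array had an overall intensity of 500. The deposited values used here are these intensities on a linear scale, 1 column per array. After trimming 2% at each end the mean was 500.1 on each array. Detection calls were not used. Precision is limited by the number of arrays.

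The 123 AFFX controls among 57381 probe sets were removed. The platform annotation, updated to symbols and synonyms of RefSeq assembly ASM3414082v1, gave 1 gene to 22436 probe sets, several to 95 and none to 34727. A gene was represented by its probe set with the highest mean signal over the 2 arrays of 5–8 cm. Neighbouring genes were taken from the order of genes in RefSeq. Ratios were log2((*pho* + 16)/(WT + 16)) without further normalization, taken where the mean signal over both arrays was 100 or more. No p-values were computed, since each genotype has 1 array at this length. The procedure was checked on simulated data.

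The members and the 24 lists were chosen with earlier results of these data known. Of 171 single names in these lists, 110 could be matched. Named genes were the 20 highest and 20 lowest, the ranked MADS-box genes and up to 4 genes of each other list, the largest in size among those at least 2-fold apart or else the largest. The ABA and DREB lists (2 lists), the other named genes at least 4-fold apart, *MS*, *TF1* and further list members given with values were added after their values had been seen. The alternatives tried were adding 1 or 64 in place of 16, dropping the filter or raising it to 200, quantile normalization, centring on the median, removing probe sets of types that may match more than 1 transcript, the mean over the probe sets of a gene, and, added after the data were seen, signals raised to the array median. Calculations used numpy 2.4.6 and pandas 2.3.3 under Python 3.11.15, and figures matplotlib 3.10.9. Real-time PCR and bisulfite data of the study were not analysed here.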

Additional observations from a re-analysis of the deposited data

Results flagged for a closer look

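Of the 97 named genes at least 2-fold lower in *pho* at 5–8 cm, 15 were at least 2-fold higher in *pho* at 9–12 cm. The 10 of these that had been selected for naming are given here. With 1 array per genotype and length this difference between the lengths was not tested. At 9–12 cm the ratios of *pho* to WT, on the log2 scale, were 1.72 for *GER2*, 2.11 for *salT*, 2.17 for *ICL*, 2.36 for *MT-1*, 5.35 for *MT1B*, 1.12 for *CAT-A*, 5.67 for *PBZ1* and 2.90 for *MS*. Those of *TIFY10C* and *HSP16.0* (a small heat shock protein gene) were 2.01 and 2.74 at 9–12 cm, beside -1.28 and -1.02 at 5–8 cm.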

How the results depend on the processing

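No paired analysis was possible because each genotype has 1 array at 5–8 cm, and for the same reason no array could be left out. All 40 genes at the ends of the ranking stayed at least 2-fold apart in the same direction under every alternative tried, as did 85 of the 96 genes that had been selected for naming and were at least 2-fold apart, and no result reversed. The counts of probe sets moved more. With 64 added to the signals, 134 were at least 4-fold higher and 142 at least 4-fold lower. With no filter on signal these counts were 394 and 365, and without probe sets that can match several transcripts 143 were higher. The median log2 ratio of the C-, D-class and B-sister list was -4.05 with 1 added, -2.0 with 64 added, -2.30 without the filter and -2.30 with signals raised to the array median. That of the tapetum list was -0.92 without the filter and -3.04 without probe sets that can match several transcripts. That of the DREB genes was 2.09 with 64 added, 0.95 without the filter and 3.86 at a minimum of 200, and that of the meiosis list was -1.23 at this minimum. In 106 of the 214 lower and 65 of the 242 higher probe sets the smaller signal lay under the array median, which limits the size of those ratios. The causes of these shifts were not tested.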
